A study of Rattus norvegicus with 12 samples.

Results

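The genes described here encode the proteasome. They are the genes whose probe sets carry 1 gene symbol in the platform annotation that begins with Psma, Psmb, Psmc, Psmd or Psme and a digit. There were 41 such genes among the 14217 genes with a probe set of 1 symbol, and for each the probe set that was brightest on average, by log2(intensity + 16) over the 12 arrays, stands for the gene. All 41 passed the filter on low values, which kept 10623 genes. Of the 41 genes, 13 encode the core particle, with 7 of the alpha ring (Psma1 to Psma7) and 6 of the beta ring (Psmb1 to Psmb5 and Psmb7). The regulatory cap accounts for 20 genes, made up of 6 ATPases (Psmc1 to Psmc6), 11 non-ATPase subunits and 3 chaperones that help to assemble the cap (Psmd5, Psmd9 and Psmd10). The immunoproteasome is represented by 5 genes (Psmb8, Psmb9, Psmb10, Psme1 and Psme2), and Psme4 encodes a further activator. The rule also took in 2 genes, Psmc3ip and Psme3ip1, that are named after a subunit they interact with and are not subunits. Psmb6 lay only in 1 probe set with several symbols and Psme3 only in 4 such probe sets, so neither has a value here. The 39 subunit, activator and chaperone genes are therefore not the whole complex.

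RNA came from the left ventricular free wall of male Sprague-Dawley rats, remote from an infarct made by permanent ligation of the left anterior descending coronary artery. At 8 weeks of age rats were injected with streptozotocin at 65 mg/kg, which destroys the insulin-producing cells of the pancreas, or with citrate buffer, and surgery followed 10 weeks later. Blood sugar was left untreated in both conditions. On each of the 12 Affymetrix arrays the RNA of 3 rats was hybridised as a pool, and sham-operated hearts and days 1, 7, 14, 28 and 56 after ligation each had 1 array per condition. Rats were 18 weeks old on the sham and day 1 arrays, 19 weeks at day 7, 20 weeks at day 14, 22 weeks at day 28 and 26 weeks on the diabetic day 56 array. The non-diabetic day 56 array is labelled 22 weeks. The sham hearts were taken after the operation, per the labels, at an interval that is not stated. Their tissue label carries the same mention of an infarct as that of ligated hearts, against their protocol, so what sham values stand for rests on the protocol. By the labels, age also differs between sham and the late days. Because no condition had a second array at a time point, the spread behind the limma p-values for time and diabetes is the variation of the diabetes difference across the 6 time points. For the slope, which uses the 10 ligated arrays, it also holds the departures of the days from a line, and for the test of a pair it is the variation over the other 5 pairs. Variation between rats was not measured. Precision is limited by the number of arrays. The 5 comparisons of a day with sham share the same 2 sham arrays. Cardiomyocyte markers were bright on every array: 9 of 10 passed the filter, and their summed intensity lay between 37554 and 49595.

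Some arrays stood apart in control probe sets. The 4 arrays of days 1 and 7 had a 3′ minus 5′ difference of beta-actin of 0.98 to 1.00 (log2), against 0.37 to 0.59 on the other 8 arrays. Since this set holds all arrays of those days and no others, it cannot be told apart from time. The diabetic day 28 array and both day 56 arrays had an AFFX_ratb1 control intensity of 56.7 to 65.5, against 24.6 to 33.6 on the other 9, and these 3 are called the late arrays below. The non-diabetic day 28 array is not among them, so the day 28 pair joins arrays of both kinds. On the non-diabetic day 14 array the dap poly-A spike read 2259, against 295 to 1058 on the other 11 arrays. The labels give no batch.

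The proteasome degrades proteins that carry ubiquitin. Its core is a barrel of alpha and beta rings, whose beta subunits Psmb5, Psmb6 and Psmb7 cut peptide bonds, and its cap recognises ubiquitin and uses ATPases to unfold the protein and feed it into the core. Interferon gamma replaces the cutting subunits with Psmb8, Psmb9 and Psmb10 and induces Psme1 and Psme2, which form a ring-shaped activator, and the resulting immunoproteasome makes peptides for display to T cells. In the heart, cardiomyocytes carry the standard particle, and the immunoproteasome is abundant in immune cells.

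The promoter windows of the 5 immunoproteasome genes and of Psma3 are printed first because 4 of the 5 immunoproteasome genes were lowest on the same 3 arrays and Psma3 had the lowest p of all members for any change with time. The sequences are those of RefSeq on build GRCr8, 5′ to 3′ on the gene's strand, from 250 bases before the annotated start to 20 bases after it. They lie at chr20:4657012-4657281 (minus strand) for Psmb8, chr20:4668750-4669019 (plus strand) for Psmb9, chr19:50743273-50743542 (minus strand) for Psmb10, chr15:33038721-33038990 (plus strand) for Psme1, chr15:33052732-33053001 (minus strand) for Psme2 and chr6:95219499-95219768 (plus strand) for Psma3. Capitals mark matches, on either strand, to the interferon-stimulated form GAAANNGAA or the antioxidant response core TGACNNNGC.
Psmb8: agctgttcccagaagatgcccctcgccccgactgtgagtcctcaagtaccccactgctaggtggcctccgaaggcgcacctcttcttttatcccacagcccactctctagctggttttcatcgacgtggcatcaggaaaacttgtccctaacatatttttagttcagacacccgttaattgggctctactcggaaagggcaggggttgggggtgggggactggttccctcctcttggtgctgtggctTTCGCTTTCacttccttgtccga
Psmb9: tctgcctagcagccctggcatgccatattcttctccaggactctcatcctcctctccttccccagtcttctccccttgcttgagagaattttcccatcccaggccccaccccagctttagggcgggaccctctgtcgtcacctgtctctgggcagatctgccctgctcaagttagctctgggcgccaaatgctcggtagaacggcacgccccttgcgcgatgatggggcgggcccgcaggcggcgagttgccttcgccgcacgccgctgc
Psmb10: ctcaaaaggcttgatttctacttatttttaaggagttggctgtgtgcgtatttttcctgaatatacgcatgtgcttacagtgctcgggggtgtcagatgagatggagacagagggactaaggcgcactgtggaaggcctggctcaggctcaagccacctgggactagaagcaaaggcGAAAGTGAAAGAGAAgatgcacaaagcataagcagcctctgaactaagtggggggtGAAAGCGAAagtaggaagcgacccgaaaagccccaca
Psme1: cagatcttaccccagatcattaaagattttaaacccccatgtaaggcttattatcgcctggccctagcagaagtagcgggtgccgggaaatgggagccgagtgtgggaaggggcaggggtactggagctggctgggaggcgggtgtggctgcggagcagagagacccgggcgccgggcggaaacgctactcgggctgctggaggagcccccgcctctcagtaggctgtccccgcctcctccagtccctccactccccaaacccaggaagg
Psme2: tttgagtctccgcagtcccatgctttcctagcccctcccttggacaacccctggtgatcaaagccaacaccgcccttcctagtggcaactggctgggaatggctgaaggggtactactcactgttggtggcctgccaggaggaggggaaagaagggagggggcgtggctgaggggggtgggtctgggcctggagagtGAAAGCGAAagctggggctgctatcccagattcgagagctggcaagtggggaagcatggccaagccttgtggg
Psma3: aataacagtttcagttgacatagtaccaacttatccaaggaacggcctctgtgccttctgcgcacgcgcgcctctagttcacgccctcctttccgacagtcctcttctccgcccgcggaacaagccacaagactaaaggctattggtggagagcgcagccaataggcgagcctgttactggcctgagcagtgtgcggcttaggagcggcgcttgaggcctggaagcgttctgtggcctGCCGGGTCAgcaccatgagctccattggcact

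In the Psmb8 window the capitals are an interferon-stimulated form, on the opposite strand, starting 3 bases before the start. Psmb10 had 3 matches to the interferon-stimulated form, starting 73, 67 and 17 bases before the start, of which the first 2 overlap. Psme2 had 1 match to that form, 53 bases before the start. The windows of Psmb9 and Psme1 hold no match to either form. The start of Psmb9 lies 457 bases from that of Tap1, a peptide transporter gene read in the opposite direction. Windows of 300 bases were found for 37 of the 41 genes (not for Psma7, Psmd6, Psmd12 and Psmd14). The interferon-stimulated form occurred in 3 of 5 immunoproteasome windows (60%), 3 of 12 core windows (25%) and 2 of 17 cap windows (11.8%), against 9.71% of all 33469 windows in the table. The antioxidant core was in 0 of 5, 3 of 12 (Psma3, Psmb2 and Psmb5) and 3 of 17, and in the Psme4 window, against 12.1%. The NF-Y box CCAAT, also searched on both strands and left in lower case, was in 2 of 5, 9 of 12 and 7 of 17, against 37.5%. These are matches of letters, and no binding was measured here.

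The median of the immunoproteasome genes stood below sham at day 1, above it at day 7 and far below it at day 56, and the largest difference from sham of any member was that of Psmb9 at day 56, 3.35-fold lower. None of these differences from sham passed the limma threshold for any of the 5 genes. Values for ligated hearts are given below in the order of days 1, 7, 14, 28 and 56, and changes are differences of log2(intensity + 16), which understate the change of dim genes.

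Psmb9 replaces the caspase-like cutting subunit of the core. The intensity of Psmb9 in non-diabetic hearts was 547 after sham operation and 296, 636, 596, 459.6 and 187 after ligation, and in diabetic hearts it was 594 and then 209, 754, 343, 182 and 135. The 3 late arrays, at 135 to 187, were the lowest of all, the 2 day 1 arrays came next, and the 2 day 7 arrays were the highest. The change from sham was -1.15 ± 0.34 (SE, adjusted p = 0.0661) at day 1 and -1.74 ± 0.34 (SE, adjusted p = 0.0937) at day 56, and day 7 exceeded day 1 by 1.42 ± 0.34 (SE, adjusted p = 0.125). Psmb9 passed the test for any change over the 6 time points (adjusted p = 0.0149). Without the 3 late arrays that adjusted p was 0.0524, and without the non-diabetic or the diabetic day 56 array it was 0.074 or 0.0613, while the day 1 difference, the same in size, then had an adjusted p of 0.0381 without the 3 late arrays.

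Psmb8 replaces Psmb5, the chymotrypsin-like subunit. For Psmb8, non-diabetic hearts gave 376 after sham operation and 271, 486, 473, 458 and 156 after ligation, against 451 and then 265, 541, 287, 155 and 122 in diabetic hearts. Again the 3 late arrays, at 122 to 156, lay below the other 9, which began at 265. The change was -0.59 ± 0.38 (SE, adjusted p = 0.35) at day 1 and -1.47 ± 0.38 (SE, adjusted p = 0.162) at day 56, and day 7 stood above day 1 by 0.90 ± 0.38 (SE, adjusted p = 0.503). Its adjusted p for any change with time was 0.0489, and this call was lost in most alternatives, at 0.196 without the 3 late arrays, 0.0582 with array medians set equal and 0.0805 after quantile normalization.

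Psmb10 takes the place of Psmb7, the trypsin-like subunit. Psmb10 had intensities of 211 (sham) and 204, 221, 269, 191 and 75.4 (ligated) without diabetes and of 193 (sham) and 149, 274, 144, 66.8 and 73.9 (ligated) with it. The late arrays were at 66.8 to 75.4 and the other 9 at 144 or more. Psmb10 differed from sham by -1.26 ± 0.35 (SE, adjusted p = 0.183) at day 56 and by -0.74 ± 0.35 (SE, adjusted p = 0.999) at day 28, where the diabetic array was at 66.8 and the non-diabetic one at 191.

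Psme2, the beta subunit of the interferon-induced activator ring, was also lowest on the late arrays, with a smaller range. At day 1 it differed little from sham, by -0.05 ± 0.29 (SE, adjusted p = 0.928). Non-diabetic hearts had Psme2 intensities of 617 after sham operation and 589, 725, 796, 567 and 334 after ligation, and diabetic hearts had 601 and 584, 846, 498, 316 and 356. Its late arrays, at 316 to 356, lay below the other 9, which began at 498, and both day 7 arrays exceeded both sham arrays. The day 56 change was -0.79 ± 0.29 (SE, adjusted p = 0.249). Psme1, the alpha subunit of that ring, had the steadiest level of the 5. The intensity of Psme1 in non-diabetic hearts was 3503 after sham operation and 3013, 3099.7, 3659, 3120.5 and 2822 after ligation, and in diabetic hearts it was 3199 and then 2805, 3608, 3066, 2903 and 2727. The late arrays overlapped the others, and its day 56 change was -0.27 ± 0.17 (SE, adjusted p = 0.436).

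**Figure D1:**
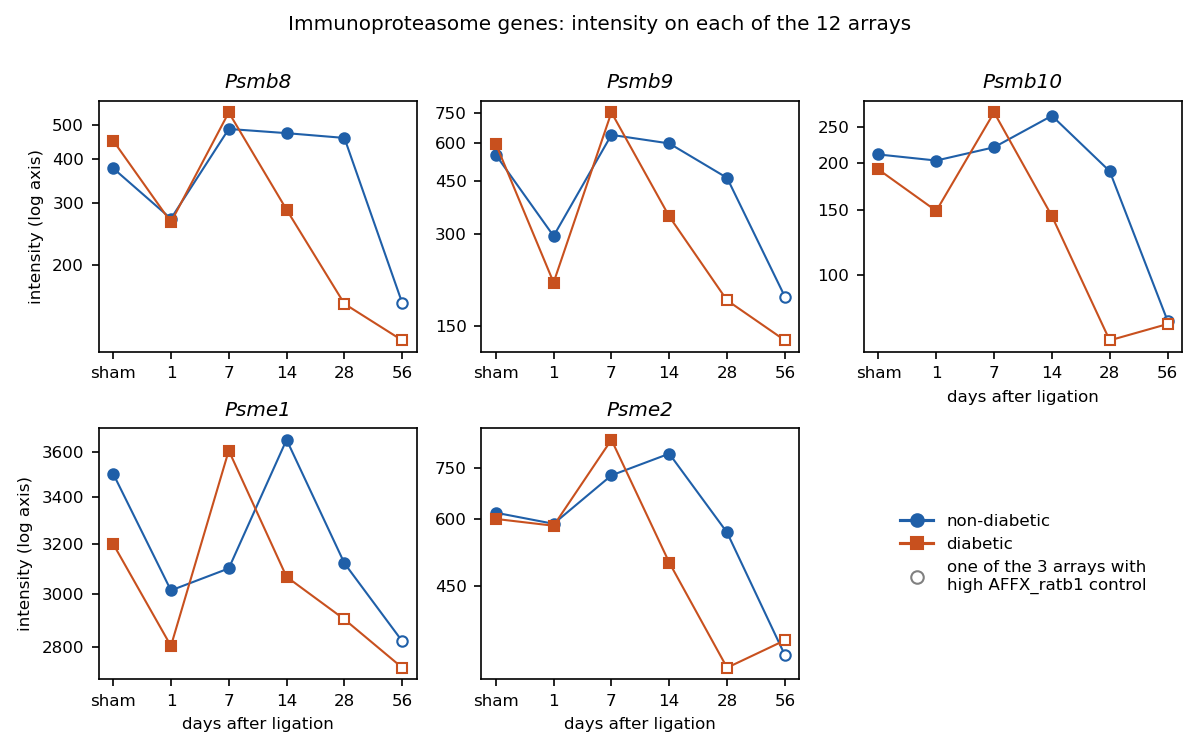
Intensity (log axis) of the 5 immunoproteasome genes on each of the 12 arrays, against time after ligation, with circles for non-diabetic and squares for diabetic hearts, 1 pooled array per point. Open symbols are the 3 late arrays, which are the lowest 3 for Psmb8, Psmb9, Psmb10 and Psme2.

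As a group, the 5 genes had a median difference from sham of -0.20 at day 1 (5 of 5 below 0), 0.27 at day 7 (4 of 5 above 0), -0.03 at day 14, -0.59 at day 28 and -1.27 at day 56 (5 of 5 below 0 at both). The medians over all 10623 genes were 0.09, 0.16, 0.05, 0.03 and -0.19. From day 1 to day 7, within the set of arrays that share the beta-actin value, the difference was above 0 for all 5, with a median of 0.46 against 0.05 for all genes. None of them was called in that comparison. With either day 28 array left out the Psmb9 difference stayed at 1.42, with an SE of 0.28. Array by array, the median of the 5 genes against the sham mean was -1.32 on the diabetic day 28 array, -1.25 on the non-diabetic day 56 array and -1.28 on the diabetic day 56 array. On the non-diabetic day 28 array it was -0.10. The day 28 median of -0.59 was -0.14 without the diabetic day 28 array and -1.26 without the non-diabetic one. The day 7 median, at 0.27, was -0.13 without the diabetic day 7 array and 0.61 without the non-diabetic one. Leaving out either day 28 array left the day 56 changes as they were but lowered the spread. The SE was then 0.27 for Psmb8 and 0.28 for Psmb9 and Psmb10. The share of all probe sets that pass in such runs is not given here. At day 56, 4 of the 5 genes had an unadjusted p under 0.05, and over all 41 members 13 did (12 lower, 1 higher), or 31.7%, against 16.4% of the 18625 probe sets tested. With adjustment 0 of 41 were called by limma at day 56, as were 0% of all probe sets.

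Other interferon-induced genes were low at day 1 and on the late arrays, and macrophage and lymphocyte markers on the late arrays. Of 31 listed interferon response genes 28 were measured. Their median against the sham mean was -1.48 to -0.99 on the late arrays and -1.17 to -0.67 on the day 1 arrays. On the sham, day 14 and non-diabetic day 28 arrays it was -0.69 to 0.32. At day 1 their median was -0.92, with 28 of 28 below 0, and 4 of 28 were called lower (Irf7, Mx2, Irgm and Cxcl9), against 7.47% of all probe sets called in either direction. At day 7 the median was 0.60, with only Dhx58, an RNA sensor, named as called higher, against 7.65% of all probe sets called in either direction. At day 56 the median was -1.36 with 27 of 28 below 0 and none called. The test for any change over time called 20 of the 28, against 18.6% of all probe sets. Against day 1, Gbp4, Dhx58 and Mx2 rose at day 7, where 0.499% of all probe sets were called, and the list's median was 1.52. Irf1, the transcription factor that acts on the interferon-stimulated form, changed by -0.96 ± 0.30 (SE, adjusted p = 0.0701) at day 1 and -1.15 ± 0.30 (SE, adjusted p = 0.162) at day 56. Tap1, the peptide transporter next to Psmb9, had intensities of 41.2 (sham) and 31.7, 70.2, 73.0, 63.5 and 11.8 in non-diabetic hearts and of 75.5 and 22.6, 105, 46.4, 29.9 and 16.9 in diabetic hearts. Its 3 late arrays and the 2 day 1 arrays were the lowest 5, as for Psmb9. Tap1 changed by -1.26 ± 0.33 (SE, adjusted p = 0.17) at day 56, and day 7 exceeded day 1 by 1.25 ± 0.33 (SE, adjusted p = 0.169). Among 14 measured genes of peptide loading, RT1-A3 and RT1-S3, class I heavy chain genes, were called lower at day 1, RT1-A3 also at day 7, and none at day 56.

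In bulk tissue, fewer cells of a type and less RNA per cell cannot be told apart. The summed intensity of 10 of 10 macrophage markers was 683 to 2190 on the 3 late arrays and 2288 to 4831 on the other 9. That of 8 of 13 lymphocyte markers was 267 to 429 on the late arrays and 524 to 1261 on the others, and the day 1 arrays were at 524 to 668. Cardiomyocyte markers did not separate these sets, with 48939 to 49595 on the late arrays and 37554 to 49450 on the others. Neutrophil markers (4 of 7 measured) read 208 to 333 in sham hearts and 819 to 1897 at day 1. They read 129 to 142 at day 7, 52.8 to 178 on the late arrays and 60.2 on the non-diabetic day 14 array. The diabetic day 14 array was at 275 and the non-diabetic day 28 array at 1144. Macrophage markers read 2953 to 3206 at day 1, above the 2288 to 2835 of sham hearts. The part of immune cells and of the array sets in the immunoproteasome values was not tested.

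Alpha ring genes were higher early and lower late. The alpha subunits form the outer rings of the core and control entry to it. Their median was 0.46 above sham at day 1 (7 of 7 above 0) and 0.27 above it at day 7 (6 of 7), then 0.45 below it at day 14 (6 of 7 below), 0.35 below at day 28 and 0.53 below at day 56 (7 of 7 below at both). No alpha ring gene was called against sham on any day. The slope over the 5 days, per doubling of the day, was below 0 for 7 of 7, and Psma3, Psma4, Psma5 and Psma6 were called.

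For Psma4, non-diabetic hearts gave 459.5 after sham operation and 866, 873, 252, 359 and 252 after ligation, against 535 and then 983, 803, 487, 412 and 452 in diabetic hearts. The 4 arrays of days 1 and 7, at 803 to 983, all lay above the other 8, which reached 535. The change was 0.87 ± 0.29 (SE, adjusted p = 0.0863) at day 1 and 0.74 ± 0.29 (SE, adjusted p = 0.138) at day 7, and the slope was -0.27 ± 0.06 (SE, adjusted p = 0.0279) per doubling of the day.

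Non-diabetic hearts had Psma3 intensities of 156 after sham operation and 222, 214, 75.0, 98.7 and 90.1 after ligation, and diabetic hearts had 158 and 233, 229, 112, 119.6 and 92.0. Its 4 early arrays, at 214 to 233, were above every other array, and the lowest was the non-diabetic day 14 array at 75.0. The day 1 change was 0.49 ± 0.23 (SE, adjusted p = 0.211), the day 14 change -0.68 ± 0.23 (SE, adjusted p = 0.402), the day 56 change -0.69 ± 0.23 (SE, adjusted p = 0.226) and the slope -0.23 ± 0.06 (SE, adjusted p = 0.0348). Its adjusted p for any change over time, 0.0118, was the smallest of the 41.

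Psma6 had intensities of 1961 (sham) and 2699.9, 2472, 1121, 1472 and 1615 (ligated) without diabetes and of 1725 (sham) and 2686, 2372, 1613, 1409 and 1476 (ligated) with it. Early arrays were again the 4 highest, with none below 2372, and no other array exceeded 1961. Psma6 changed by 0.55 ± 0.21 (SE, adjusted p = 0.136) at day 1, with a slope of -0.17 ± 0.05 (SE, adjusted p = 0.0439).

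The intensity of Psma5 in non-diabetic hearts was 606 after sham operation and 759, 667, 497, 525 and 326 after ligation, and in diabetic hearts it was 540.3 and then 829, 679, 545, 393 and 415. The late arrays were the 3 lowest and the early arrays the 4 highest. Psma5 had the smallest p for the slope, which was -0.18 ± 0.04 (SE, adjusted p = 0.0251). The early arrays of Psma2 overlapped its sham arrays. For Psma2, non-diabetic hearts gave 1195 after sham operation and 1249, 1117, 471, 908 and 639.8 after ligation, against 1147 and then 1279, 1149.5, 938, 815 and 872 in diabetic hearts. Its lowest array was the non-diabetic day 14 array, and the day 14 change was -0.80 ± 0.28 (SE, adjusted p = 0.402).

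Beta ring genes had medians of 0.30 at day 1, 0.20 at day 7, 0.22 at day 14, -0.23 at day 28 and -0.46 at day 56, and none was called on any day. Psmb4, a structural beta subunit, had the only called slope among the 6. The intensity of Psmb4 in non-diabetic hearts was 1780.4 after sham operation and 2300.2, 2161, 2056, 1849 and 1071 after ligation, and in diabetic hearts it was 1619 and then 2130.2, 2175, 1748, 1111 and 1192. The early arrays were the highest 4 and the late arrays the lowest 3. Its slope was -0.16 ± 0.05 (SE, adjusted p = 0.0461), and it changed by -0.58 ± 0.23 (SE, adjusted p = 0.261) at day 56. Psmb2 went the other way early. Non-diabetic hearts had Psmb2 intensities of 979 after sham operation and 704, 624, 1240.4, 900.4 and 707 after ligation, and diabetic hearts had 815 and 682, 638, 1000.0, 588 and 656. All 4 early arrays were below both sham arrays, and the change was -0.49 ± 0.23 (SE, adjusted p = 0.212) at day 7.

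The 2 measured constitutive cutting subunits can be set beside their interferon-induced counterparts. Psmb5 had intensities of 1449 (sham) and 1938, 1612, 2202, 1505 and 1396 (ligated) without diabetes and of 1408 (sham) and 1459, 1592, 1589.8, 1130.5 and 1225 (ligated) with it. Psmb5 changed by -0.13 ± 0.20 (SE, adjusted p = 0.775) at day 56, where Psmb8 changed by -1.47. For Psmb7, non-diabetic hearts gave 1315 after sham operation and 1563, 1418, 1503, 1234 and 939 after ligation, against 1115 and then 1197, 1236, 1171, 1031 and 1063 in diabetic hearts. Psmb7 changed by -0.27 ± 0.21 (SE, adjusted p = 0.523) at day 56, where Psmb10 changed by -1.26. The differences between these paired changes were not tested. For both constitutive genes the 3 late arrays lay just below the other 9.

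The alpha and beta rings parted on the non-diabetic day 14 array. There 6 of 7 alpha genes were below the sham mean with a median of -0.71, and 6 of 6 beta genes were above it with a median of 0.41. With array medians set equal the 2 medians were -0.66 and 0.46, and after quantile normalization -0.71 and 0.46. The diabetic day 14 array had medians of -0.15 and 0.05. The non-diabetic day 14 array is the one with the high dap spike, whose part was not tested.

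**Figure D2:**
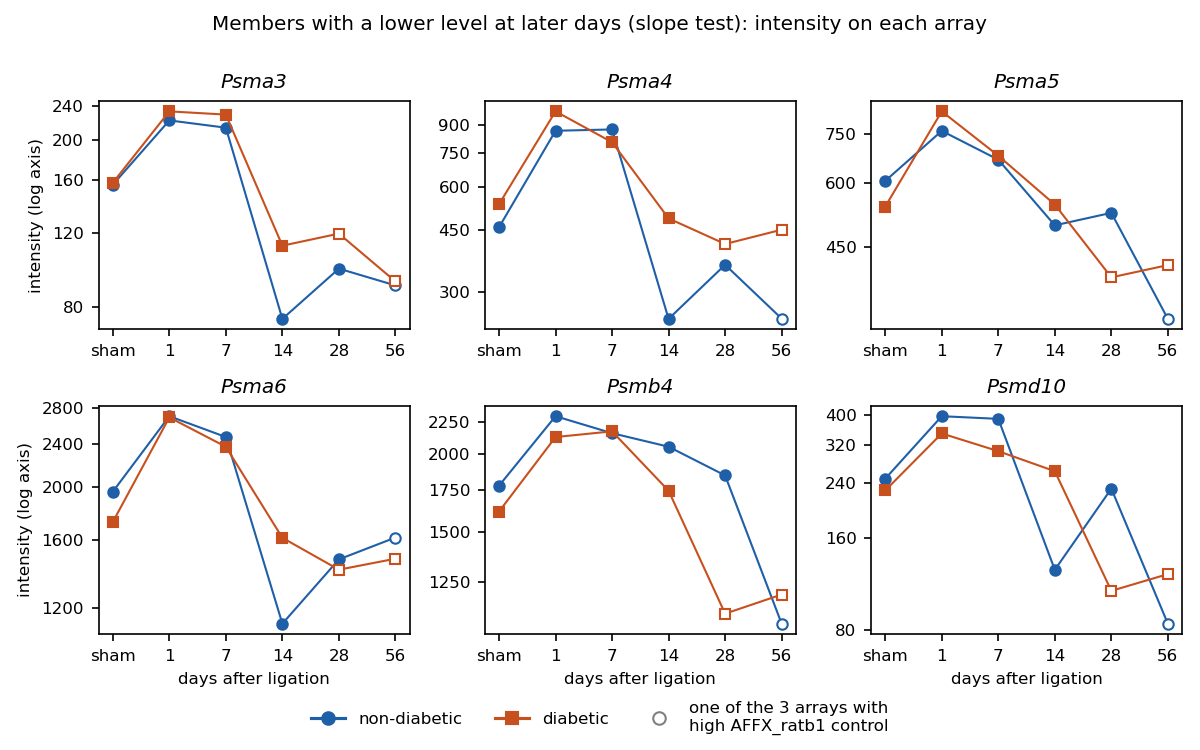
Intensity (log axis) of the 6 genes whose level fell with time after ligation in the slope test, on each of the 12 arrays, 1 pooled array per point, with symbols as in the plot of immunoproteasome genes. For each gene the 4 arrays of days 1 and 7 are the highest.

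Over all members the slope was called lower for 6 of 41 genes, or 14.6%, and higher for none. Among all probe sets 9.92% were called, 5.97% as lower. At an unadjusted p under 0.05 the slope was lower for 18 of 41 (43.9%) and higher for none. Among all probe sets 19.2% were lower at that threshold, and 30.2% passed it in either direction. The median slope was -0.15 for the core, -0.08 for the cap, -0.12 for the immunoproteasome and -0.04 for all genes. The calls depended on the arrays used. So did the slopes when the 4 early arrays were left out or the 3 sets of arrays were a block. No member was called without either day 1 array, the diabetic day 28 array or either day 56 array, none without the 4 early or the 3 late arrays, and none with the 3 sets of arrays as a block. With 1 of those 5 arrays left out the slopes of the 6 genes were between -0.35 (Psmd10) and -0.13 (Psmb4), and for Psma3 between -0.26 and -0.22. Without the 3 late arrays the slope was -0.24 for Psma3 and -0.28 for Psma4, but -0.18 for Psmd10 and -0.06 for Psmb4. Without the 4 early arrays it was -0.0057 for Psma3, -0.025 for Psma4 and 0.10 for Psma6. It was then -0.24 for Psma5, -0.37 for Psmb4 and -0.38 for Psmd10. Without the non-diabetic day 14 array 12 were called lower, and the share of all probe sets in that run is not given here. With the block the slopes of the 6 genes were between -0.07 and -0.00277, and the immunoproteasome median turned from -0.12 to 0.13, with slopes of 0.05 to 0.41 for its 5 genes and none called (adjusted p from 0.188). The test for any change over the 6 time points called 7 of 41 (17.1%), namely Psma3, Psma4, Psma6, Psmb8, Psmb9, Psmd10 and Psme4, against 18.6% of all probe sets. At an unadjusted p under 0.05 it took 18 of 41 (43.9%) against 40.2%. The number called by this test changed with the array left out. The shares of all probe sets called in those runs are not given here, so these changes cannot be read as particular to the members.

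The regulatory cap had medians nearer to sham than the core at days 1 and 56. Its median of 20 genes was 0.19 above sham at day 1, with 19 of 20 above 0, and 0.35 below it at day 56, with 19 of 20 below 0. At days 14 and 28 the medians were 0.10 and -0.01. At day 7 the median was 0.03 on the deposited scale, -0.08 with array medians set equal and -0.13 after quantile normalization. Over all genes the day 7 median went from 0.16 to 0.05 and -0.02 with these scalings, and relative to all genes the cap stood at -0.13, -0.13 and -0.11, the core at 0.07, 0.07 and 0.17 and the immunoproteasome at 0.11, 0.11 and 0.13.

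Psmd10, also known as gankyrin, is a chaperone that holds the ATPase Psmc4 during assembly, and it had the widest range of the cap. The intensity of Psmd10 in non-diabetic hearts was 249 after sham operation and 397, 389, 126, 231 and 84.0 after ligation, and in diabetic hearts it was 228 and then 349, 305, 263, 107 and 122. The 4 early arrays, from 305 upward, were the highest, and the 3 late arrays the lowest. Psmd10 was the only cap gene with a called slope, -0.30 ± 0.07 (SE, adjusted p = 0.032), and it changed by -1.11 ± 0.39 (SE, adjusted p = 0.235) at day 56. Psmc6, an ATPase of the base ring, was lowest on the non-diabetic day 14 and day 56 arrays. For Psmc6, non-diabetic hearts gave 496 after sham operation and 628, 565, 229, 320.5 and 273 after ligation, against 609 and then 657, 605, 477, 439.9 and 401 in diabetic hearts. It changed by -0.70 ± 0.27 (SE, adjusted p = 0.402) at day 14, -0.53 ± 0.27 (SE, adjusted p = 0.999) at day 28 and -0.71 ± 0.27 (SE, adjusted p = 0.259) at day 56. Psmc4, the ATPase bound by Psmd10, had its highest value on the array where Psmc6 was lowest. Non-diabetic hearts had Psmc4 intensities of 628 after sham operation and 546, 472, 930.3, 632 and 463 after ligation, and diabetic hearts had 512 and 525, 449, 676, 423 and 462. The day 14 change of Psmc4 was 0.47 ± 0.24 (SE, adjusted p = 0.456).

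The non-ATPase subunits Psmd8 and Psmd11 had their highest values at day 1. Psmd11 had intensities of 562 (sham) and 805, 598, 620.5, 575 and 534 (ligated) without diabetes and of 512 (sham) and 833, 595, 567, 588 and 528 (ligated) with it. Both day 1 arrays exceeded the other 10, and the change was 0.60 ± 0.22 (SE, adjusted p = 0.112) at day 1 and 0.15 ± 0.22 (SE, adjusted p = 0.708) at day 7. A second probe set of Psmd11 read only 0.19 above sham at day 1, and its diabetic day 1 array, at 535, was below its non-diabetic sham array, at 552. For Psmd8, non-diabetic hearts gave 448 after sham operation and 689, 486, 576, 585 and 278 after ligation, against 478 and then 740.1, 497, 459, 439 and 410.0 in diabetic hearts. The 2 day 1 arrays were again the highest, with a day 1 change of 0.61 ± 0.27 (SE, adjusted p = 0.183). Psmd6, a lid subunit, was high at both early days. Non-diabetic hearts had Psmd6 intensities of 876 after sham operation and 1202, 1073, 479, 675 and 537 after ligation, and diabetic hearts had 778 and 992, 987, 699, 686 and 705. Its 4 early arrays were above the others, and the day 7 change was 0.31 ± 0.26 (SE, adjusted p = 0.48).

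**Figure D3:**
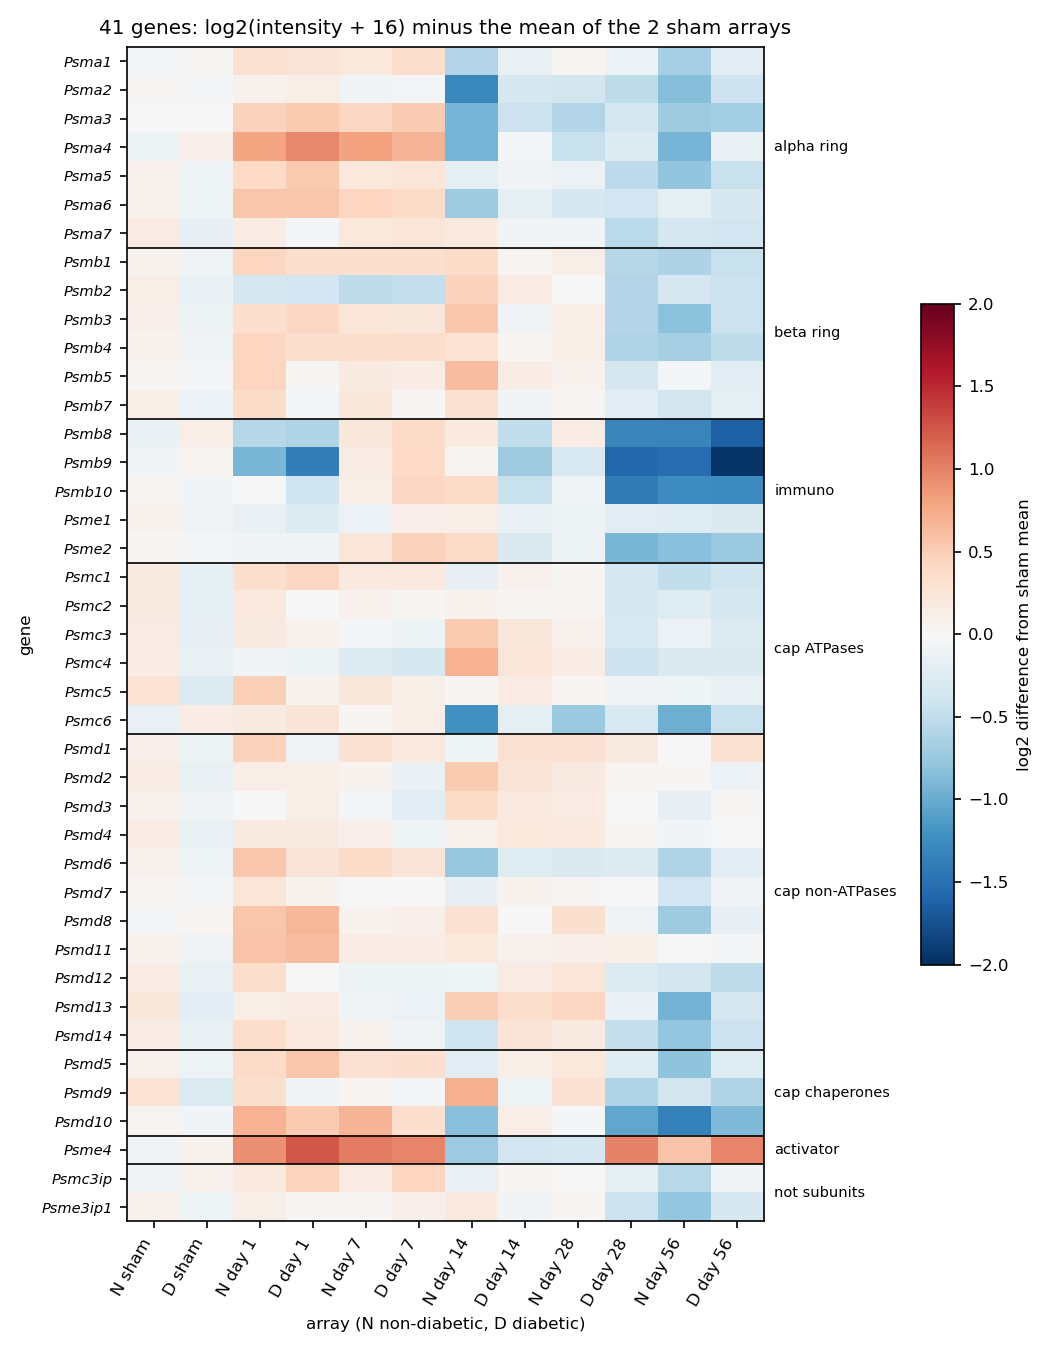
Each cell is the log2(intensity + 16) of a gene on an array minus the mean of the 2 sham arrays, for the 41 genes (lines, grouped by role) and the 12 arrays (N non-diabetic, D diabetic, 1 pooled array each). Blue marks values below sham and red values above it, with deep blue for Psmb8, Psmb9 and Psmb10 on the 3 late arrays, among other cells, and red for Psme4 on those same arrays.

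Psme4 encodes a single-chain activator of the core that works without ATP or ubiquitin, and it ran against the other late changes. The intensity of Psme4 in non-diabetic hearts was 255 after sham operation and 522, 565, 157, 208 and 410.0 after ligation, and in diabetic hearts it was 286 and then 658, 547, 203, 552 and 544. It was high on all 4 early arrays and again on the 3 late arrays, where the lowest value was 410.0, and the other 5 arrays did not exceed 286. Psme4 changed by 1.07 ± 0.32 (SE, adjusted p = 0.0635) at day 1, 1.00 ± 0.32 (SE, adjusted p = 0.0774) at day 7 and 0.77 ± 0.32 (SE, adjusted p = 0.273) at day 56. With either day 28 array left out the day 1 and day 7 differences were the same in size, with an SE of 0.23. Its other 2 probe sets had mean differences from sham of 0.33 and 0.98 at day 1 and of 0.61 and 0.74 at day 56. In the first of them the diabetic day 1 array, at 216, was below the diabetic sham array, at 240.1. Of the genes named after a subunit, Psmc3ip was highest on the 4 early arrays, and Psme3ip1 was lowest on the 3 late ones.

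Against sham, 0 of 41 members were called by limma on any day. At an unadjusted p under 0.05 the counts were 6 at day 1, 2 at day 7, 3 at day 14 and 1 at day 28. Among all probe sets the shares called were 7.47% at day 1, 7.65% at day 7, 0% at day 14 and 0% at day 28, with 25.5%, 25.5%, 11.7% and 3.62% at an unadjusted p under 0.05. Day 7 against day 1 called 0 of 41 (0.499% of all probe sets) and 2 at an unadjusted p under 0.05 (8.71%), Psmb8 and Psmb9, both higher at day 7. With either day 28 array left out, the differences of Psme4 (days 1 and 7) and Psmb9 (day 1) kept their size with a smaller SE.

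The levels separated the sets of arrays for many members. In 20 of 41 genes (48.8%) all 3 late arrays lay below the other 9, against 10.5% of all probe sets, and in 0 of 41 did they lie above, against 4.84%. The 20 were 7 of 13 core genes, 8 of 20 cap genes, 4 of 5 immunoproteasome genes and Psme3ip1. In 11 of 41 (26.8%) all 4 early arrays lay above the other 8, against 12% of all probe sets, and in 0 of 41 below, against 7.67%. These were 6 core genes (Psma1, Psma3, Psma4, Psma5, Psma6 and Psmb4), 4 cap genes (Psmc1, Psmd5, Psmd6 and Psmd10) and Psmc3ip, and no immunoproteasome gene. The late set mixes a control reading, day 56 and 1 diabetic day 28 array, and the part of each was not tested. At day 28, where only the diabetic array belongs to the late set, 35 of 41 members were lower on it than on the non-diabetic array, as were 6769 of the 10623 genes.

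**Figure D4:**
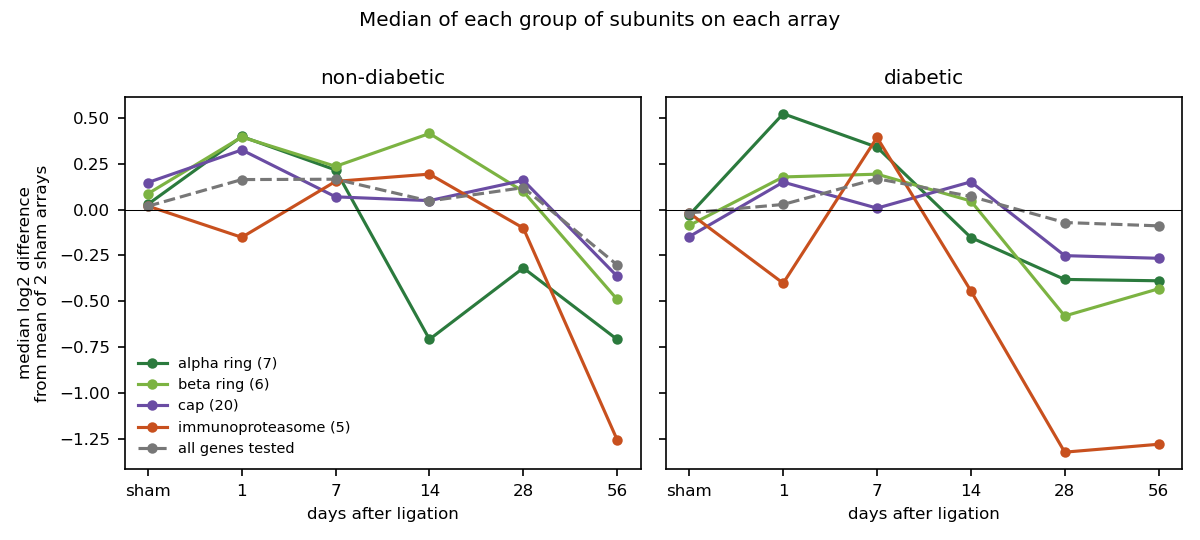
Median over the genes of each group of the log2 difference from the mean of the 2 sham arrays, on each array, for non-diabetic (left) and diabetic (right) hearts, with all 10623 genes as the dashed line. The immunoproteasome median is at -1.25 on the non-diabetic day 56 array and at -1.32 and -1.28 on the diabetic day 28 and day 56 arrays, and the alpha and beta rings part at day 14 in non-diabetic hearts.

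Diabetes changed no member past the threshold. Over the 6 pairs of arrays 0 of 41 were called by limma, against 0.376% of all probe sets, and 3 had an unadjusted p under 0.05 against 10.6%. The median diabetic minus non-diabetic difference was -0.35 for the immunoproteasome (5 of 5 below 0), -0.19 for the beta ring (6 of 6 below 0), 0.14 for the alpha ring (6 of 7 above 0), -0.06 for the cap and -0.01 for all genes. Without either day 28 array the immunoproteasome median was -0.13. The difference had 1 sign at all 6 time points for 8 of 41 members, against 6.22% of all probe sets. Psma3 and Psmc6 were higher in diabetic hearts, and Psmb5, Psmc2, Psmc3, Psmc4, Psmd2 and Psmd9 lower. This holds for the representative probe sets, and further probe sets of Psmb5, Psmc4, Psmc6 and Psmd9 did not keep 1 sign.

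Psmd9, a chaperone of the ATPase ring, had the smallest p. Psmd9 had intensities of 205 (sham) and 212, 172, 282, 208 and 127 (ligated) without diabetes and of 135 (sham) and 159, 165, 156, 104 and 105 (ligated) with it. The diabetic array was the lower of each pair, with a difference of -0.49 ± 0.15 (SE, adjusted p = 0.292). A second probe set of Psmd9 had a difference of -0.24 and was higher in the diabetic heart at day 7, at 122 against 104. The representative probe set of Psmc6, whose intensities are given above, was the higher in the diabetic heart of each pair, by 0.40 ± 0.16 (SE, adjusted p = 0.393). Its further probe sets had differences of 0.19 and 0.12. At day 1 both were lower in the diabetic heart, at 313 against 472 and at 103 against 134. The differences were 0.36 ± 0.17 (SE, adjusted p = 0.475) for Psma4 and 0.42 ± 0.18 (SE, adjusted p = 0.451) for Psme4. Non-diabetic hearts had Psma7 intensities of 1493 after sham operation and 1490.1, 1544, 1535, 1292 and 1047 after ligation, and diabetic hearts had 1195 and 1299.6, 1574, 1291, 909 and 1017. For this alpha subunit the difference was -0.21 ± 0.12 (SE, adjusted p = 0.567). Among the immunoproteasome genes it was -0.43 ± 0.20 (SE, adjusted p = 0.477) for Psmb9, -0.40 ± 0.20 (SE, adjusted p = 0.521) for Psmb10 and -0.35 ± 0.22 (SE, adjusted p = 0.6) for Psmb8.

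The diabetes difference of the immunoproteasome varied from pair to pair. Diabetic minus non-diabetic, the median of the 5 genes was -0.04 in sham hearts, -0.10 at day 1, 0.22 at day 7 (5 of 5 higher), -0.69 at day 14 (0 of 5 higher), -1.26 at day 28 (0 of 5 higher) and -0.05 at day 56. For all genes the medians were -0.04, -0.10, -0.01, 0.05, -0.19 and 0.21. The directions at days 7, 14 and 28 were the same with array medians set equal and after quantile normalization, with medians of 0.27 and 0.25, -0.78 and -0.79, and -1.29 and -1.15. The day 14 pair lies outside both sets of arrays that stand apart, although its non-diabetic array is the one with the high dap spike. Whether a pair departed from the other 5 was tested with an interaction term. At day 28 the departure was -1.34 ± 0.42 (SE, adjusted p = 0.124) for Psmb8, -1.10 ± 0.43 (SE, adjusted p = 0.211) for Psmb10 and 1.11 ± 0.36 (SE, adjusted p = 0.133) for Psme4, and that of Psmb9 was also below 0 (adjusted p = 0.255). At day 14 it was -0.51 ± 0.54 (SE, adjusted p = 0.789) for Psmb10 and -0.55 ± 0.42 (SE, adjusted p = 0.701) for Psme2, and at day 7 0.84 ± 0.53 (SE, adjusted p = 1) for Psmb10.

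No departure of any pair was called for a member. Among all probe sets the shares were 0% for sham, 0% for day 1, 0.00537% for day 7, 0% for day 14, 1.9% for day 28 and 0% for day 56. At an unadjusted p under 0.05 the members numbered 0, 0, 0, 3, 6 and 0, against 0.671%, 5.83%, 1.31%, 8.9%, 18.1% and 3.32% of all probe sets. Diabetes by ligation, the sham pair against the ligated pairs, called 0 of 41 (0% of all probe sets) and took 0 at an unadjusted p under 0.05 (0.671%).

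Among core and cap genes, those with the smallest p in these tests at day 14 were Psma2, with a departure of 0.91 ± 0.33 (SE, adjusted p = 0.52), Psma6 with 0.61 ± 0.26 (SE, adjusted p = 0.552), Psmd10 with 1.21 ± 0.49 (SE, adjusted p = 0.546) and Psmc6 with 0.73 ± 0.35 (SE, adjusted p = 0.574), all low on the non-diabetic array. At day 28 they were Psmb4 with -0.66 ± 0.28 (SE, adjusted p = 0.243), Psmb1 with -0.63 ± 0.29 (SE, adjusted p = 0.288), Psmd10 with -1.16 ± 0.49 (SE, adjusted p = 0.243) and Psmd14 with -0.73 ± 0.43 (SE, adjusted p = 0.401), all low on the diabetic array.

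For Psmb1, non-diabetic hearts gave 1596 after sham operation and 2037, 1899, 1947, 1649.7 and 981 after ligation, against 1434 and then 1902, 1917, 1568, 1009 and 1109.7 in diabetic hearts. Psmd14 had intensities of 374 (sham) and 433, 351, 249, 379.7 and 189 (ligated) without diabetes and of 299 (sham) and 385, 319, 403, 236 and 248 (ligated) with it. By these probe sets both genes were lowest on the late arrays, which include only the diabetic member of the day 28 pair. The second probe set of Psmd14 was lowest on the non-diabetic day 14 array, at 145. At day 28 it read 214 in the diabetic and 226 in the non-diabetic heart. A further, dimmer one was lowest on the late arrays. 

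At day 56 Psmd13, a lid subunit, departed by 0.84 ± 0.39 (SE, adjusted p = 0.977) and Psmb3 by 0.69 ± 0.40 (SE, adjusted p = 0.977). Non-diabetic hearts had Psmd13 intensities of 264 after sham operation and 248, 212, 322, 304 and 109 after ligation, and diabetic hearts had 189.5 and 253, 204, 289, 203 and 174. The intensity of Psmb3 in non-diabetic hearts was 1045 after sham operation and 1242, 1160.3, 1426, 1074 and 546 after ligation, and in diabetic hearts it was 913 and then 1309, 1148, 926, 647 and 722. For both the non-diabetic day 56 array was the lowest of the 12. At day 1 the smallest p of all members was that of Psmd1, a scaffold of the cap, with -0.58 ± 0.40 (SE, adjusted p = 0.955). For Psmd1, non-diabetic hearts gave 310.4 after sham operation and 401, 358, 269, 353 and 284 after ligation, against 265 and then 274, 329, 357, 328 and 359 in diabetic hearts. For diabetes by ligation the smallest p was that of Psmb8, with -0.72 ± 0.59 (SE, adjusted p = 1), and among cap genes that of Psmc5, with 0.43 ± 0.40 (SE, adjusted p = 1). Psmc5 had intensities of 821 (sham) and 951, 798, 691, 696 and 639.8 (ligated) without diabetes and of 560.0 (sham) and 709.7, 737, 763, 651 and 614 (ligated) with it. Psmc5 was lowest on the diabetic sham array.

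**Figure D5:**
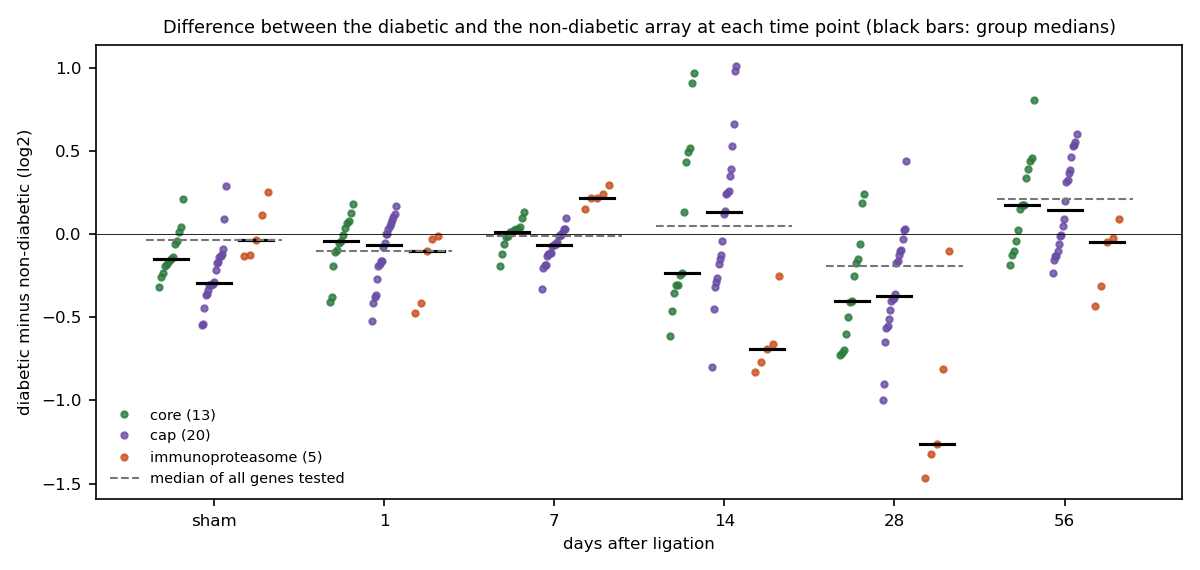
Diabetic minus non-diabetic difference in log2(intensity + 16) at each time point, 1 point per gene, for core, cap and immunoproteasome genes, with the median of each group as a black bar and of all genes as a dashed line. The 5 immunoproteasome genes are above 0 at day 7 and below it at days 14 and 28.

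Some genes that assemble or feed the proteasome were called for any change over time, at shares near that of all probe sets. The shares of all probe sets called, given above, were 7.47% at day 1, 9.92% for the slope and 18.6% for any change over time. The last test called 4 of 17 assembly and associated factors (Psmg2, Psmg3, Uchl5 and Ubqln1), 4 of 20 ubiquitin pathway genes (Uba6, Cul3, Skp1 and Fbxo32) and 0 of 11 regulators of proteasome genes. Of 17 measured assembly and associated factors, Ubqln1, a shuttle for ubiquitinated proteins, rose at day 1 by 1.09 ± 0.27 (SE, adjusted p = 0.0335), and the slope was called downward for Ubqln1, Uchl5 (a deubiquitinase of the cap) and Psmg2 (a core assembly chaperone). Psmg2 had a slope of -0.21 ± 0.05 (SE, adjusted p = 0.0282). The list's median slope was -0.09. Of 20 ubiquitin pathway genes, Uba6, a ubiquitin-activating enzyme, rose at day 1 by 1.48 ± 0.21 (SE, adjusted p = 0.00246) and at day 7 by 1.52 ± 0.21 (SE, adjusted p = 0.00229). The muscle ubiquitin ligase gene Fbxo32 (atrogin-1) had a called slope upward of 0.30 ± 0.05 (SE, adjusted p = 0.0109). None of 11 measured regulators of proteasome genes was called against sham. Nfe2l1, which drives subunit genes when proteasome activity is low, changed by 0.63 ± 0.33 (SE, adjusted p = 0.26) at day 1 and 0.79 ± 0.33 (SE, adjusted p = 0.165) at day 7.

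Among 8 measured NFE2L2 targets, Hmox1 rose at day 1 by 2.08 ± 0.50 (SE, adjusted p = 0.0319), with 8 of 8 above 0 and a median of 0.30, and its slope was called downward. Of 18 heat shock and chaperone genes, 2 rose at day 1 (Hspb1 and Tcp1) and 3 had a slope called downward (Tcp1, Cct3 and Dnaja1), beside the shares of 7.47% and 9.92% for all probe sets. The list had a median of 0.43 at day 1. No member of the autophagy and lysosome list (15 measured) was called on any day or in the slope. Diabetes called none of the genes on these lists.

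Some genes had further probe sets. The 3 probe sets of Psmc6 all had negative slopes, of -0.17, -0.18 and -0.22, and the dimmest of them was called (adjusted p = 0.042). A dim second probe set of Psmc4 read 0.61 above sham at day 1, where the representative one read -0.08. A further probe set of Psmd14, the cap's deubiquitinase, had intensities of 61.9 and 40.9 on the sham arrays and of 375, 363, 308 and 239 on the 4 early arrays. Its slope was -0.58 (adjusted p = 0.0099), against -0.13 for the representative probe set and -0.15 for the second. Which part of the transcript each probe set reads was not analysed here.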

How the data were processed

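RNA pooled from 3 rats per array was measured on 12 Affymetrix rat arrays, 1 per condition and time. The authors deposited 1 intensity per probe set on a linear scale, made with PLIER in Affymetrix Expression Console, per the submitters' processing notes; no version is named there. Values were taken as log2(intensity + 16) of the deposited intensities. Of 31042 probe sets, 18625 above the 40th percentile of the mean were tested in limma 3.58.1 (R 4.3.3), with terms for time and diabetes, 5 residual degrees of freedom and Benjamini-Hochberg adjustment over all probe sets, and a call is an adjusted p under 0.05.

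The slope was fitted on log2 of the day over the 10 ligated arrays, and each pair's departure with an interaction term. Symbols came from the platform annotation, with 20826 probe sets of 1 symbol, 436 of several and 9780 not listed, and of the first 20758 matched a RefSeq gene. The members and lists were chosen with earlier results of these data known. In the core and in the cap the genes named were, for each comparison, the called members with the largest changes (up to 4) or, with none called, the 2 with the smallest p; the immunoproteasome genes, Psmb5, Psmb7 and Psme4 are always given, and any others were chosen after their values were seen. Scripts were tested on simulated data. Alternatives covered the offset, filter, scaling, variance trend, probe set choice and arrays left out.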

Additional observations from a re-analysis of the deposited data

How the results depend on the processing

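The diabetes test is paired by time point through the time term, and with 1 array per group no replicate number could serve as a further block. The counts of members called for diabetes, day 14, day 28 and diabetes by ligation were 0 in each alternative run. After quantile normalization day 1 called 1 member, Psmb9. With each array left out in turn, the counts ranged from 0 to 2 at day 1, 0 to 1 at day 7, 0 to 3 at day 56, 0 to 1 for day 7 against day 1, 1 to 17 for any time point and 0 to 12 for the slope. Without the 3 late arrays, an alternative chosen after seeing the data, the counts were 2 at day 1, 1 at day 7, 4 for any time point and 0 for the slope. Without the day 1 and day 7 arrays they were 0 for any time point and 0 for the slope, and the Psma6 slope turned to 0.10 (adjusted p = 0.676). With the 3 sets of arrays as a block, also added after seeing the data, 0 slopes were called. The alternatives that use fewer arrays cannot separate time from the sets of arrays, and the cause of these differences was not tested. The shares of all probe sets called in the runs with arrays left out are not given here. The intensity of Tap1 went down to 11.8 and that of the second Psmc4 probe set to 14.7, below the offset of 16, where differences on this scale are understated.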
